A study of Mus musculus with 6 samples.

Results

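Potassium channel genes outside the Kv4 family were followed through the cell classes of the mouse retina at 2 ages. They are the genes whose symbol starts with Kcn, without the Kv4 channels (Kcnd), their interacting proteins (Kcnip) and the glial inward rectifier gene Kcnj10, and with at least 50 unique molecular identifiers (UMIs, the counted RNA molecules) summed over all 6 libraries. Of 90 such symbols, 69 reached that minimum, among 32285 genes in all and 19067 genes that reached it. Kcng1 with 81 and Kcnmb3 with 59 UMIs lay just inside, and Kcnh4 with 45 and Kcnj16 with 43 UMIs just outside. The members held 713577 UMIs together, and Kcnma1, with 91593, held the most.

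Nuclei came from retinas of wild type C57BL6/J mice aged 18 months (18mo, 3 libraries) and 3 months (3mo, 3 libraries), and their RNA was counted with a droplet 3′ kit. The labels name no treatment for either group and give no sex, pooling or day, and they do not say that libraries are separate animals, so p-values measure the spread between libraries, which may be technical in part. Clusters of nuclei were formed without any Kcn gene and named from marker genes. The 8 classes present in every library were rod-like, cone-like, rod bipolar-like, cone bipolar-like, horizontal-like, amacrine-like, ganglion-like and Müller glia-like, and the ending is dropped below.

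Potassium channels let potassium ions cross the membrane down their gradient, and so set the resting potential and end depolarizations. Voltage-gated (Kv) channels open on depolarization, inward rectifiers (Kir) conduct best near and below the resting potential, tandem-pore (K2P) channels carry leak current, and BK and SK channels open when calcium rises. Silent Kv subunits form no channel alone but join those of the Kv2 family, and Kv beta, KCNE and BK beta subunits are auxiliary proteins without a pore. In the retina, photoreceptors and bipolar cells respond with graded potentials, ganglion cells fire action potentials, and Müller glia buffer potassium.

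Library totals ran from 15905689 to 29340705 UMIs, and 5027 to 14083 nuclei per library were kept, of which 31613 of 50241 in all could be named. The library 18mo replicate 3 stood apart: 10008 of its 12789 nuclei stayed unnamed, against 1008 to 4125 in the other 5 libraries, and it held 203 rods against 426 to 5350. Cell Ranger release 7.1.0 had made the table of replicate 1 of both ages and release 7.2.0 the other 4. Any pair of libraries shared 11 to 74 barcodes. All 8 classes had their own markers, but these were also counted in other classes. The 14 rod markers summed to 12.7% (ganglion) to 51.7% (cone) of their rod level in the other classes. The 15 ganglion markers summed to 10.2% (rod bipolar) to 20.6% (amacrine) of their ganglion level. The 17 amacrine markers reached 79.1% of their amacrine level in Müller glia and 61.0% in horizontal nuclei. The cone bipolar markers reached 74.8% of their own level in rod bipolar nuclei, and both bipolar lists hold Trpm1, Grm6, Isl1 and Cabp5. The part of free RNA in these levels was not tested.

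The pore region shows how some members that differ between rods, bipolar and ganglion nuclei below are built. Stretches of 60 coding bases around the potassium selectivity filter, from GENCODE M21 transcripts on mm10, are given 5′ to 3′ on the coding strand. Capitals mark the 3 filter codons, which read GGNTANGGN (glycine, tyrosine, glycine) in most families. They read GGNTTNGGN in the ether-a-go-go family and in some Slo, Kir and K2P members.
Kcnv2: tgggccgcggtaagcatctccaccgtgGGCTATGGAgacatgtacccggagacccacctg
Kcnb2: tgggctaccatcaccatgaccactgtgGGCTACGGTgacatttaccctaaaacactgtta
Kcnc2: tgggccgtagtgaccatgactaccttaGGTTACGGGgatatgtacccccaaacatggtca
Kcnj14: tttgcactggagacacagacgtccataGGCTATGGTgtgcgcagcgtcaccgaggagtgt
Kcnh7: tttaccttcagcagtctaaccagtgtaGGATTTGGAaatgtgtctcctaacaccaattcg

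The Kcnv2 stretch begins in exon 1 on the plus strand, spans an intron and lies at chr19:27324149-27333692. The others each lie within a coding exon: Kcnb2 in exon 3 at chr1:15710025-15710084 (plus strand), Kcnc2 in exon 3 at chr10:112456208-112456267 (plus), Kcnj14 in exon 2 at chr7:45819609-45819668 (minus) and Kcnh7 in exon 8 at chr2:62777319-62777378 (minus). The Kcnb2 stretch matched that of Kcnc2 at 41 of 60 bases (68.3%) and that of the silent subunit Kcnv2 at 40 (66.7%), while the inward rectifier Kcnj14 matched Kcnb2 at 23 (38.3%). GGNTANGGN was found in frame on the coding strand in 42 of 66 members with a coding sequence (63.6%), against 6.11% of 21523 coding genes, and 56 members held this motif or GGNTTNGGN. All 6 Kv10 to Kv12 members, the ether-a-go-go family, held GGNTTNGGN only. So did the Slo genes Kcnt1, Kcnt2 and Kcnu1, the Kir genes Kcnj8 and Kcnj11, and the K2P genes Kcnk2, Kcnk12 and Kcnk13. None of the 3 Kv beta and 2 KCNE genes held either motif. A match of letters is a description and not a measure of function.

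The members differed strongly between classes. Each class was set against the mean of the other 7 with library as a block, by edgeR's quasi-likelihood test, and a gene was called at a Benjamini-Hochberg adjusted p of at most 0.05. Levels by class are CPM, the UMIs of a gene over all UMIs of the class in that library, scaled to a common total and by edgeR's TMM factors over all classes. Sums of markers or members, levels in single clusters and percents of a highest level use the total alone. Of the 69 members, 43 passed the low-count filter, among 11486 genes. In rods 5 members were higher and 32 lower, beside 37.1% and 32.4% of all genes tested. In cones 8 were higher and 30 lower (23.9% and 25.3% of all genes). In amacrine nuclei 31 were higher and 7 lower (22.3% and 23.3%), and in ganglion nuclei 28 were higher and 11 lower (32.6% and 33.2%). Rod bipolar nuclei had 11 higher and 6 lower (10.5% and 6.13%), cone bipolar nuclei 14 and 5 (9.42% and 4.44%), horizontal nuclei 10 and 13 (16.2% and 14.7%) and Müller glia 2 and 8 (15.4% and 8.48%). The median log2 contrast of the members tested was -0.96 in rods and -1.28 in cones, beside 0.04 and 0.01 over all genes, and 1.12 in amacrine and 0.97 in ganglion nuclei, beside -0.07 and -0.03.

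**Figure D1:**
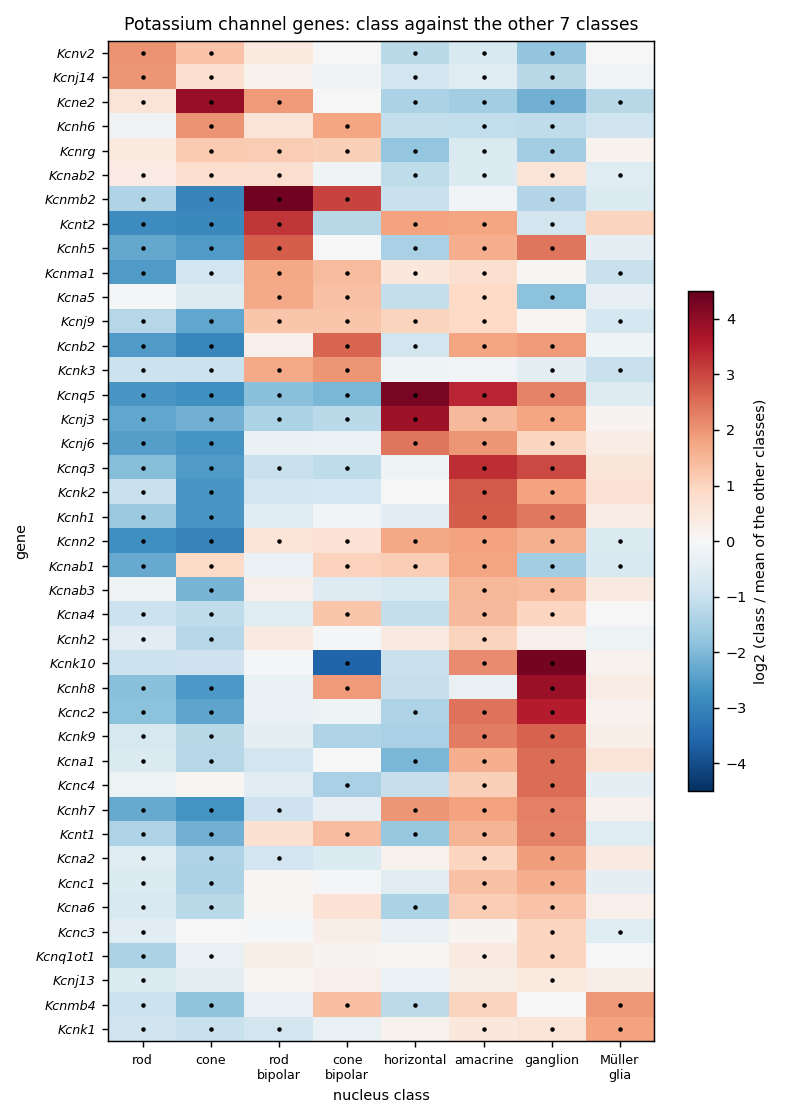
Log2 ratio of each class (columns) to the mean of the other 7 classes for 41 of the 43 potassium channel genes tested (rows, grouped by the class with their highest contrast). Black dots mark an adjusted p of at most 0.05. The rod and cone columns are mostly blue, and the amacrine and ganglion columns mostly red.

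By mean level, 29 of the 69 members were highest in ganglion nuclei, 10 in amacrine, 8 in rod bipolar, 6 in horizontal and 4 each in rod, cone, cone bipolar nuclei and Müller glia. Without the TMM factors 63 members had the same highest class, and 24 were highest in ganglion and 14 in amacrine nuclei. The difference between the highest class and the next was often within the spread of the libraries. Of the 43 members tested, 8 had a highest class whose lowest library lay above every library of the next class, beside 8.55% of all genes, among them Kcna2, Kcnab1, Kcnc2, Kcnh8, Kcnj3, Kcnk10 and Kcnmb2. Without the factors there were 6, and Kcna2 was not among them.

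Photoreceptors carried a short list of higher members. Kcnv2, the silent subunit whose human counterpart is mutated in cone dystrophy with supernormal rod response, and the inward rectifier gene Kcnj14 were among those that led the rods. Kcnv2 (ENSMUSG00000047298) had 166, 157 and 109 CPM in the 18mo rods and 200.5, 299.5 and 234 in the 3mo rods. Of these 6 values, 5 lay above every cone library, and the lowest, of 18mo replicate 3, lay within the range of the cones, 98.8 to 151. The contrast of Kcnv2 was 2.03 ± 0.12 in rods (log2 ± SE, n = 6 libraries, edgeR adjusted p = 1.89e-19) and 1.27 ± 0.15 in cones (adjusted p = 5.04e-10). Kcnj14 (ENSMUSG00000058743) had a lowest, median and highest library of 169, 242 and 366 CPM in rods, and its contrast there was 1.997 ± 0.10 (adjusted p = 7.15e-22). The Kv2 gene Kcnb2 ran the other way, with a contrast of -2.57 ± 0.26 in rods and -2.93 ± 0.29 in cones, both called.

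Outside the photoreceptors Kcnv2 and Kcnj14 mostly stood near the share of the rod markers there, with Kcnv2 above it in rod bipolar nuclei. Kcnv2 was at 43.1% of its rod level in rod bipolar nuclei, where the rod markers were at 31.1%, and at 31.5% in Müller glia, where they were at 29.7%. In ganglion nuclei Kcnv2 was at 10.3% and the rod markers were at 12.7%. Kcnj14 ranged from 13.5% in ganglion nuclei to 50.6% in cones. The part of free rod RNA in these levels was not tested.

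**Figure D2:**
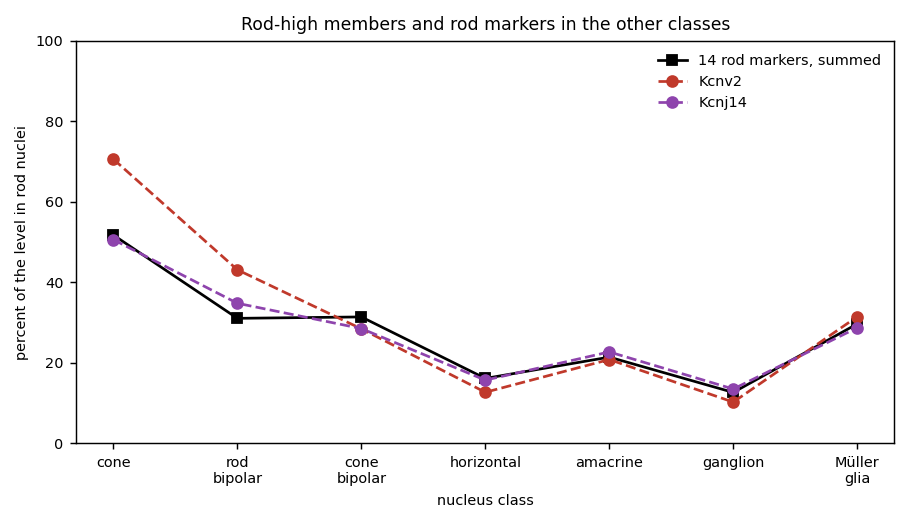
Level of Kcnv2 and Kcnj14 in the other 7 classes as a percent of their mean level in rod nuclei (dashed lines), beside the sum of 14 rod markers (black). The marker line runs between 51.7% in cones and 12.7% in ganglion nuclei, and Kcnv2 lies above it in cones (70.6%) and rod bipolar nuclei (43.1%).

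Among the 8 members higher in cones were Kcne2, Kcnh6 and Kcnab1. Kcne2, an auxiliary subunit with a single membrane pass, had 91.6, 160.0 and 52.7 CPM in the 18mo cones and 105, 154 and 178 in the 3mo cones. Its contrast was 3.90 ± 0.16 (adjusted p = 5.43e-27). In rod bipolar nuclei Kcne2 stood at 30.6% of its cone level, where the 12 cone markers were at 11.5%, and it was called higher there too (1.93 ± 0.23, adjusted p = 1.13e-09). Kcnh6, an ether-a-go-go-related channel, had a contrast of 2.03 ± 0.27 in cones (adjusted p = 9.75e-09). Its cone values were 80.7 and 70.2 CPM in replicate 1 of the 18mo and 3mo groups and 7.53 to 28.5 in the other 4 libraries, a split that follows the Cell Ranger release. Kcnh6 had a mean of 39.0 in cones and nearly as much, 35.4, in cone bipolar nuclei, where it was called too (1.77 ± 0.32). Kcnab1, a Kv beta subunit, was higher in cones (0.87 ± 0.14) and lower in rods (-2.28 ± 0.18), both called, and had its highest mean in amacrine nuclei.

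Both bipolar classes were called higher for the BK gene Kcnmb2 and had the highest means of the BK gene Kcnma1. Kcnmb2, a BK beta subunit that makes BK currents inactivate, had 370.5, 457 and 433 CPM in the 18mo rod bipolar nuclei and 357, 342 and 346 in the 3mo ones. Each lay above all 6 cone bipolar values, which ran from 36.5 to 246. The contrast was 4.35 ± 0.17 in rod bipolar (adjusted p = 6.78e-27) and 3.05 ± 0.21 in cone bipolar nuclei (adjusted p = 2.6e-17). Kcnma1, the BK pore gene, was also highest in rod bipolar nuclei, with a mean of 1984 CPM, against 1600 in cone bipolar nuclei and 163 in rods, the lowest class.

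Kcnt2 and Kcnh5 had higher levels in rod bipolar and Kcnb2 in cone bipolar nuclei, while Kcnk3 and Kcnj9 had similar means in both. Kcnt2, a sodium-activated Slo2 channel, had a lowest, median and highest library of 34.0, 53.2 and 69.7 CPM in rod bipolar nuclei, with a contrast of 3.201 ± 0.27 (adjusted p = 4.88e-14), and was at 0 in 4 of 6 cone bipolar libraries and at 2.76 and 9.002 in the rest. Kcnh5, an ether-a-go-go channel, had 321, 561 and 646 in rod bipolar nuclei, with a contrast of 2.73 ± 0.20 (adjusted p = 1.53e-16), and a mean of 122 in cone bipolar nuclei, with a contrast of -0.01 ± 0.34. The difference between the bipolar classes was not itself tested. Kcnb2 had 782.5, 1338 and 1641 in cone bipolar nuclei, with a contrast of 2.62 ± 0.17 (adjusted p = 8.28e-18). Kcnk3, an acid-sensitive K2P channel, had a contrast of 1.98 ± 0.22 in cone bipolar (adjusted p = 4.3e-10) and 1.69 ± 0.23 in rod bipolar nuclei (adjusted p = 3.72e-08), with means of 44.3 and 47.4. Kcnj9, a G protein-gated Kir subunit, was called higher in rod bipolar (1.24 ± 0.16, mean 83.4) and cone bipolar nuclei (1.23 ± 0.16, mean 80.9).

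Horizontal nuclei were higher for G protein-gated Kir genes and a Kv7 gene, of which Kcnj3 stood above the next class without overlap. Kcnj3, which joins Kcnj6 or Kcnj9 products in such channels, had 616, 703 and 356 CPM in the 18mo horizontal nuclei and 638, 966 and 909.6 in the 3mo ones. No library of ganglion nuclei, the next class with 144 to 269, reached these values, and the contrast was 3.80 ± 0.16 (adjusted p = 3.81e-26). Kcnj6 (2.40 ± 0.18, adjusted p = 4.84e-16) and Kcnj9 (1.01 ± 0.19, adjusted p = 1.73e-05) were higher there too. Kcnj6 had a mean of 222 in horizontal and 179 in amacrine nuclei, with overlap, and without the TMM factors the means were 181.0 and 181.2. The mean of Kcnj9, 74.2, lay below those of both bipolar classes. Kcnq5, a Kv7 channel that contributes to the slow M-current, had a lowest, median and highest library of 172, 321 and 434, with a contrast of 4.26 ± 0.25 (adjusted p = 3.03e-20). The classical strong inward rectifier genes Kcnj2 and Kcnj12, too low for the test, had their highest means in horizontal nuclei as well, at 23.5 and 27.2 CPM.

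**Figure D3:**
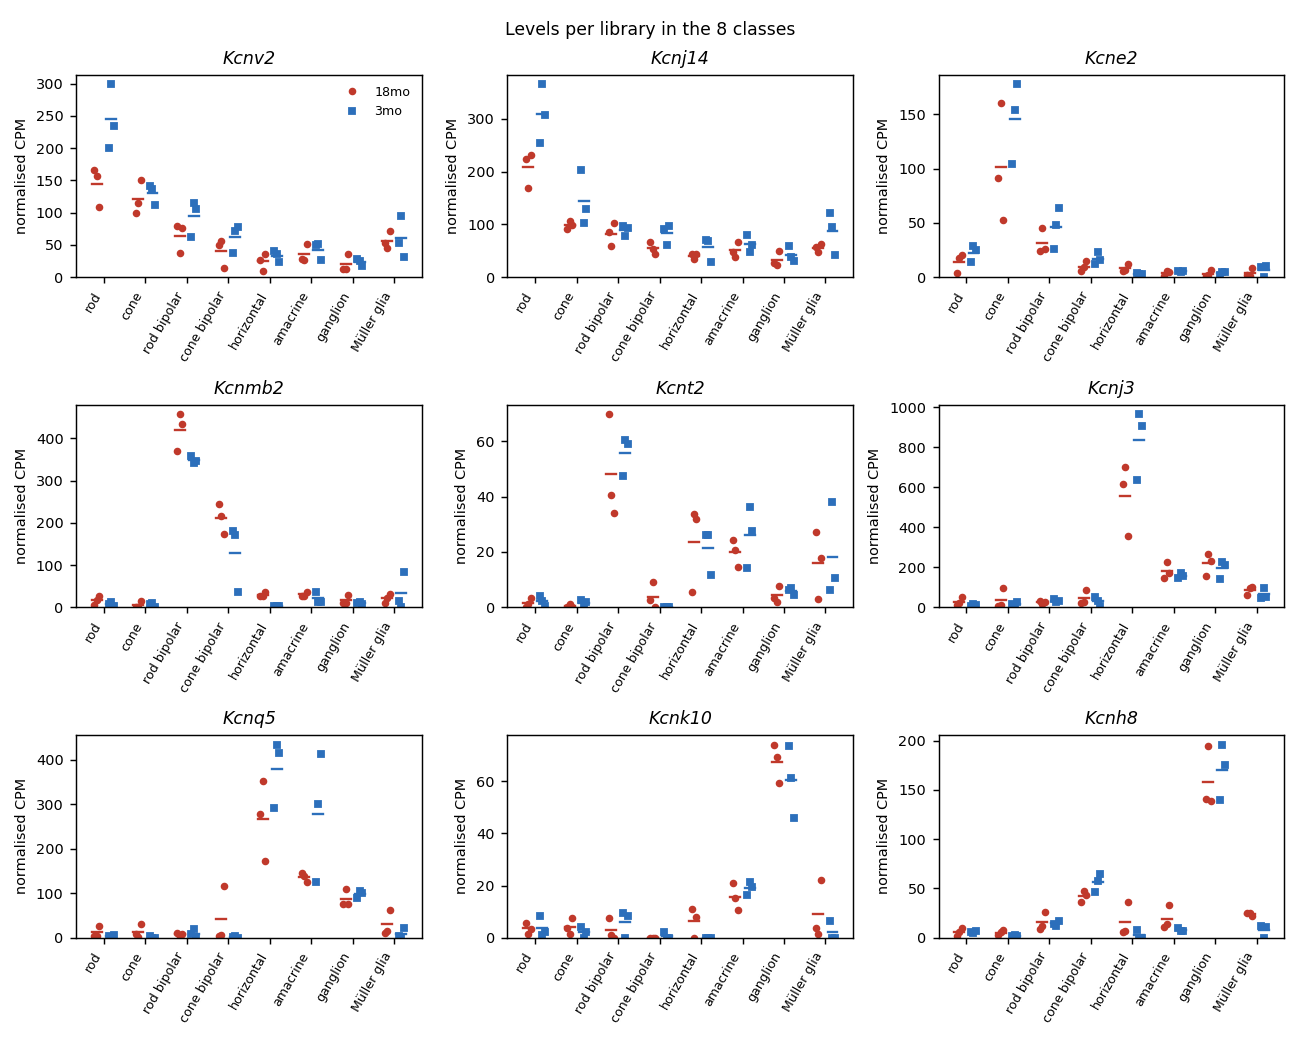
Normalised CPM of 9 potassium channel genes in the 8 classes, 1 point per library (18mo as red circles at the left and 3mo as blue squares at the right of each class), with bars at the mean of 3 libraries. Kcnmb2 is highest in rod bipolar nuclei (342 to 457), Kcnj3 in horizontal nuclei (356 to 966) and Kcnk10 in ganglion nuclei (46.1 to 74.2).

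Amacrine and ganglion nuclei were called higher for many of the same members. Of 31 members higher in amacrine and 28 higher in ganglion nuclei, 24 were in both lists, 77.4% of the amacrine and 85.7% of the ganglion list. Of all genes tested, 2000 were higher in both (17.4%), 78.1% of the genes higher in amacrine and 53.4% of those higher in ganglion nuclei. Kcnq3, a Kv7 subunit of the M-channel, had a contrast of 3.33 ± 0.16 in amacrine (273 to 440.0 CPM, adjusted p = 8.77e-23) and 2.97 ± 0.16 in ganglion nuclei (255 to 348, adjusted p = 6.84e-22). Kcnk2, a mechanically sensitive K2P channel, had a contrast of 2.77 ± 0.25 in amacrine nuclei (12.1 to 41.7, adjusted p = 2.17e-13). Kcnq5 had a contrast of 3.42 ± 0.22 in amacrine nuclei (adjusted p = 2.22e-18), which was 0.93 and not called (adjusted p = 0.0838) when classes came from a marker gate on single nuclei. Kcnn2, an SK channel gene, had means of 565 CPM in amacrine, 539 in horizontal and 506 in ganglion nuclei, against 45.5 in rods and 36.2 in cones. Kcnab1 was highest in amacrine nuclei, with a mean of 515, and was called lower in ganglion nuclei (-1.57 ± 0.16).

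Kcnc2, Kcnk10 and Kcnh8 were highest in ganglion nuclei, without overlap with the next class. Kcnc2, a Kv3 channel that repolarizes the membrane quickly, had 891.5, 1316 and 1164 CPM in the 18mo and 847, 1292 and 1167 in the 3mo ganglion nuclei, above all amacrine libraries (402 to 737). Its contrast was 3.54 ± 0.22 (adjusted p = 3.56e-20). Kcnk10, a K2P relative of Kcnk2, had a lowest, median and highest library of 46.1, 65.4 and 74.2, against 10.4 to 21.5 in amacrine nuclei, and a contrast of 4.30 ± 0.19 (adjusted p = 8.74e-26). Kcnh8, an ether-a-go-go-like channel, had 139, 158 and 196, against 35.9 to 64.9 in cone bipolar nuclei, and a contrast of 3.89 ± 0.14 (adjusted p = 6.69e-29). In rods and cones these 3 genes stood at 2.62% to 6.44% of their ganglion level, below the ganglion markers at 16.5% and 12.9%. Also higher in ganglion nuclei were Kcna1, an axonal Kv1 channel (2.52 ± 0.14), Kcnh7, an ether-a-go-go-related channel (2.28 ± 0.16), and Kcnc1, a Kv3 channel (1.65 ± 0.12), all called. Among members too low for the test, Kcnk12, a K2P gene, had 17.7 to 24.2 CPM in ganglion nuclei and at most 10.4 in amacrine nuclei, its next class, and the silent subunit Kcns3 had 5.17 to 15.5, above every library of horizontal nuclei, the next class.

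Müller glia were higher for few members besides the excluded Kcnj10. Kcnmb4, a BK beta subunit, had 39.7, 32.2 and 31.1 CPM in the 18mo and 58.6, 57.0 and 52.8 in the 3mo Müller glia, with a contrast of 1.94 ± 0.22 (adjusted p = 2.05e-10). Antisense genes overlap Kcnmb4, and the strand used in counting is not given in the sources used here, so reads of the pair may not be told apart. The same holds for Kcnab1, Kcnab2, Kcnh1, Kcnh7, Kcnj3, Kcnj6, Kcnj9, Kcnj13, Kcnk1, Kcnk2, Kcnk3, Kcnk10, Kcnma1, Kcnn2, Kcnq1ot1, Kcnq3, Kcnq5 and Kcnt2, each with an annotated gene on the other strand. Kcnk1, a K2P channel, had 56.0, 93.4 and 31.1 in the 18mo and 49.7, 19.0 and 73.9 in the 3mo Müller glia, with a contrast of 1.83 ± 0.18 (adjusted p = 5.33e-12).

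Single clusters within a class stood out for some members, given as a description of clusters picked after their values were seen, among those of at least 300 nuclei (7 of 10 amacrine clusters). In the amacrine cluster led by Gm38505, Sox2ot and Chat, the choline acetyltransferase gene, Kcnk2 had a lowest, median and highest library of 104, 213 and 273 CPM, against at most 39.3 in the next amacrine cluster, and Kcnb2 had 2199, 2706 and 3982, against at most 1767. That cluster held 3.36% (3mo replicate 3) to 31.3% (18mo replicate 3) of the amacrine nuclei of a library. The part of this share in the class level of Kcnk2 was not tested. In the amacrine cluster led by Spink13, Gm49171 and Dab1, Kcnma1 had 2375, 3333 and 4093, against at most 1297. In that led by Tlr4 and Tac2, Kcnq5 had 518, 669.7 and 749.7, against at most 353, and Kcnk10 had 40.2, 65.8 and 85.7, against at most 16.7. Kcnn3, an SK gene, was highest in the ganglion cluster led by Tbx20, which has the melanopsin gene Opn4 among its 10 leading genes, at 24.1, 32.7 and 79.2, against at most 13.5 in the next. Kcnh8 had 407, 502 and 565 in the ganglion cluster led by Foxp2, against at most 388. Of the cone bipolar clusters, that led by Neto1 and Cdh8 had Kcnh7 at 218, 477 and 582, against at most 120.0 in that led by Cdh9 and Hs3st4.

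Summed over all members, the 18mo means lay above the 3mo means in all 8 classes, without a test. With classes from the marker gate this turned in rods (3016 CPM at 18mo and 3117 at 3mo). The sum was 8171 ± 301 CPM in 18mo and 7294 ± 302 in 3mo amacrine nuclei (SD, n = 3 each), 7473 ± 556 in 18mo and 6845 ± 179.7 in 3mo ganglion nuclei, and 3101 ± 562 in 18mo and 2736 ± 502 in 3mo rods. In Müller glia it was 3912 ± 795 in 18mo and 2795 ± 318 in 3mo libraries. The 3 libraries of each age did not overlap in amacrine, cone bipolar and Müller glia nuclei and overlapped in the other classes. Under the marker gate cone bipolar nuclei overlapped (6019 CPM in 18mo replicate 2, 6057 in 3mo replicate 1), and horizontal nuclei did not. With a mitochondrial limit of 2% Müller glia overlapped (3333 in 18mo replicate 2, 3595 in 3mo replicate 1). With classes from clusters, 18mo replicate 3 held the highest sum in every class, for instance 3578 CPM in rods and 4814 in Müller glia.

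Age was tested in each class by edgeR's quasi-likelihood test with age and Cell Ranger release as terms. A single member in a single class was called, Kcnc2 in Müller glia, among 23 members tested there, beside 0.905% of all genes (0.554% higher and 0.351% lower at 18mo), and 10 of the 23 had an unadjusted p under 0.05, beside 8.81% of all genes. In rods 0 of 36 members were called, beside 1.9% of all genes (0.741% higher and 1.16% lower), with 11 at an unadjusted p under 0.05, beside 23.8% of all genes, and 1 called by DESeq2, beside 4.7%. In the other 6 classes no member was called by edgeR or DESeq2, and at an unadjusted p under 0.05 there were 2 of 18 in cones (6.78% of all genes), 2 of 24 in rod bipolar (4.3%), 1 of 27 in cone bipolar (6.49%), 1 of 16 in horizontal (8.64%), 7 of 53 in amacrine (7.52%) and 2 of 61 in ganglion nuclei (7.53%). All genes called there came to 0.125% in horizontal (0.107% higher and 0.0179% lower), 0.0148% in cone bipolar and 0.0% in the other 4 classes. DESeq2 called 0.0% (rod bipolar) to 0.243% (cone) of all genes in these 6 classes, and 0.132% in ganglion nuclei. Without the release term edgeR called 0 genes in every class, and 84 (rod bipolar) to 609 (rod) genes had an unadjusted p under 0.05.

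Levels with age are normalised CPM with TMM factors set within the class. Kcnc2 in Müller glia had 218, 238 and 323 normalised CPM in the 18mo libraries and 60.4, 191 and 52.4 in the 3mo libraries. The ages did not overlap, though 3mo replicate 2 lay near the 18mo values. The log2 change was 1.46 ± 0.33 (edgeR adjusted p = 0.0215), from 110, 145 and 68 UMIs at 18mo and 44, 17 and 4 at 3mo, and the 3mo replicates 2 and 3 held 54 and 55 Müller glia nuclei. The adjusted p was 0.735 with age as the only term, 0.140 with classes from the marker gate and 0.757 with a mitochondrial limit of 2%. It was 0.518 without 18mo replicate 1, 0.510 without 3mo replicate 1 and 0.323 without 3mo replicate 3, and 0.000425 without 18mo replicate 3. The 15 ganglion markers, none at 0, summed to 745, 671 and 1215 CPM in the 18mo and 589, 829.9 and 644 in the 3mo Müller glia, the 17 amacrine markers to 3478 to 3758 at 18mo and 2870 to 3679 at 3mo, and the rod markers to 7817 to 11864 at 18mo and 16403 to 18942 at 3mo. Over all 6 libraries Kcnc2 in Müller glia stood at 16.9% of its ganglion level, where the ganglion markers were at 16.7%. The part of these marker lists in the change was not tested.

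Other members of Müller glia had log2 changes of the same sign and did not pass the test. Of the 23, 17 had a positive log2 change, with a median of 0.76 beside -0.00 over all genes, and 7 (30.4%) did not overlap between the ages, beside 9.16% of all genes. The median was 0.36 without 18mo replicate 1, 0.39 without 18mo replicate 3, 0.43 without 3mo replicate 1 and 0.41 without 3mo replicate 2, and 0.32 with a mitochondrial limit of 2%, where 13 members had a positive and 10 a negative change. Kcnh5 had 111, 88.5 and 209 normalised CPM at 18mo and 46.7, 44.9 and 52.4 at 3mo (1.35 ± 0.38, adjusted p = 0.0869). Kcnb2 had 249, 341 and 589 at 18mo and 154, 213 and 170.3 at 3mo (1.01 ± 0.28, adjusted p = 0.0884). Both were called with the replicate number as a block, beside Kcnc2. That block called 3 of 23 members, beside 81 higher and 69 lower of 7404 genes. Kcnmb4 had 43.5, 34.4 and 33.2 at 18mo and 63.1, 67.3 and 65.5 at 3mo, without overlap but not called (-0.73 ± 0.39, adjusted p = 0.663). In 12 of the 23 members 18mo replicate 3 held the highest value, and the same share over all genes was not counted.

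In rods the photoreceptor members lay lower at 18mo and several members of other neurons higher, and none was called. Kcnv2 had 157, 162 and 109 normalised CPM in the 18mo rods and 197, 309.6 and 243 in the 3mo rods. The ages did not overlap, and the log2 change was -0.76 ± 0.24 (edgeR adjusted p = 0.0807). Kcnv2 was called with the replicate block (-0.79, adjusted p = 0.0376), without 18mo replicate 1 (-0.98, adjusted p = 0.0266) and without 3mo replicate 1 (-0.87, adjusted p = 0.0432), and its change was -0.53 (adjusted p = 0.241) without 18mo replicate 3. With age as the only term it was -0.80 (adjusted p = 0.704), and between the release 7.1.0 libraries alone, 1 of each age and with no test, -0.27. Kcnj14 had 211, 174 and 232 in the 18mo and 249, 379 and 319 in the 3mo rods, without overlap (-0.62 ± 0.24, adjusted p = 0.129). The 14 rod markers, none at 0, were lower too in every library, at 28726, 36546 and 27473 CPM in the 18mo and 42042, 77522 and 65695 in the 3mo rods, and whether the members differed beyond them was not tested.

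Some members that lay higher in the 18mo rods had their highest value in 18mo replicate 3. Kcnc2 had 39.5, 48.5 and 177 normalised CPM in the 18mo and 29.8, 26.7 and 32.2 in the 3mo rods (1.34 ± 0.41, edgeR adjusted p = 0.0761). Kcnb2 had 35.6, 85.4 and 160.3 in the 18mo and 47.7, 32.9 and 41.3 in the 3mo rods (1.07 ± 0.36, adjusted p = 0.0906). Kcnab1 had 58.0, 60.4 and 64.8 in the 18mo and 49.7, 23.4 and 29.4 in the 3mo rods, with the 18mo libraries close together, without overlap but not called (0.92 ± 0.27, adjusted p = 0.0641). In 22 of the 36 members tested, whatever the sign of their change, the highest library was 18mo replicate 3. The same share over all genes was not counted. Ganglion markers summed to 1259 CPM in the rods of that library against 560.1 to 854 in the other 5, and amacrine markers to 2035 against 695 to 1522, and their part in these values was not tested. Of the 36, 25 had a positive and 11 a negative log2 change, with a median of 0.36 (0.56 without 3mo replicate 1) beside -0.03 over all genes, and 5 (13.9%) did not overlap between the ages, beside 10.1% of all genes. The replicate block called 6 members in rods (Kcnc2, Kcnb2, Kcnh7, Kcnab1 and Kcnn2 higher, Kcnv2 lower), beside 9.45% of all genes, and without 18mo replicate 1 there were 9, beside 13.4%. Without 18mo replicate 3 there were 0.

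**Figure D4:**
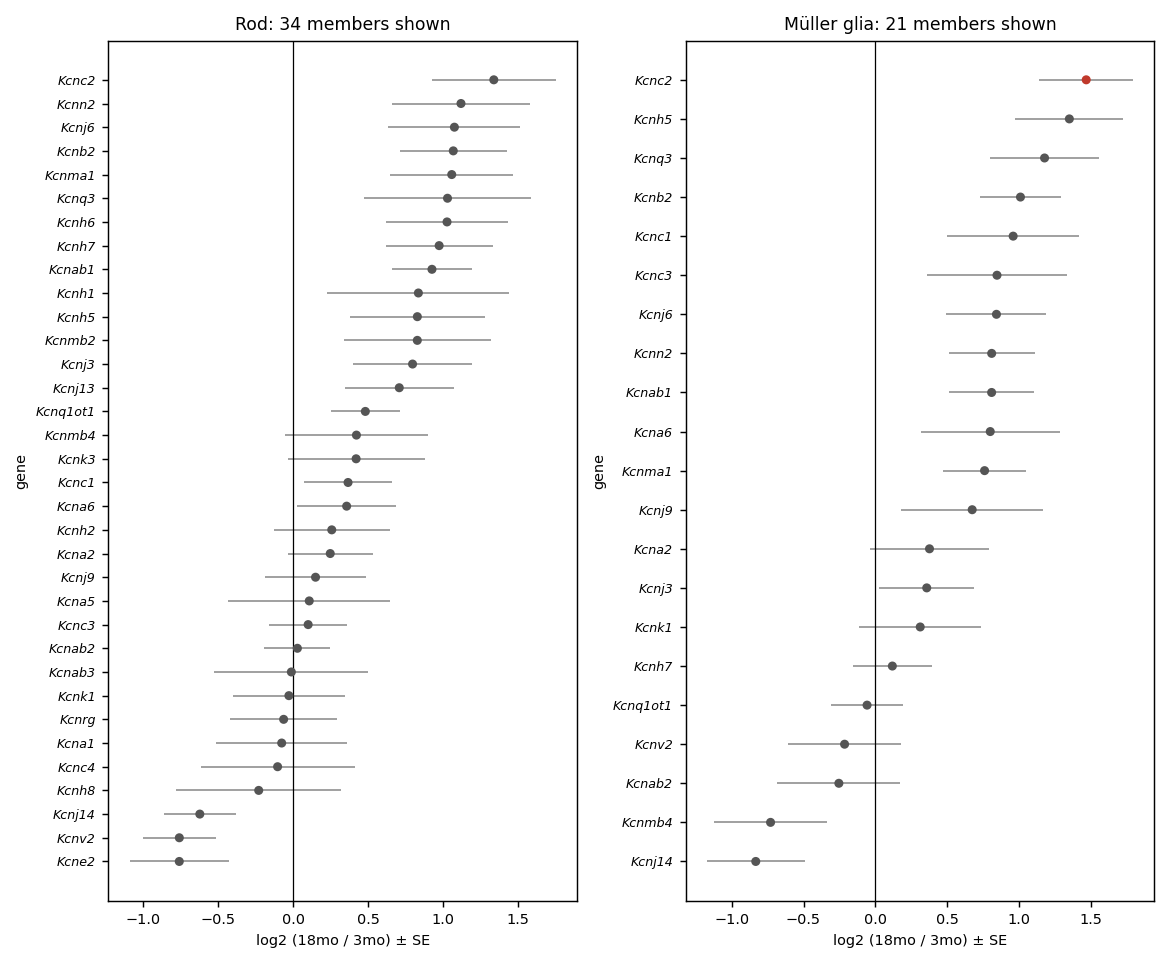
Log2 ratio of 18mo to 3mo libraries with its standard error for 34 of the 36 members tested in rods (left) and 21 of the 23 tested in Müller glia (right), sorted by size. Kcnc2 in Müller glia (1.46), in red, has an adjusted p of at most 0.05, and Kcnv2 in rods lies at -0.76.

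**Figure D5:**
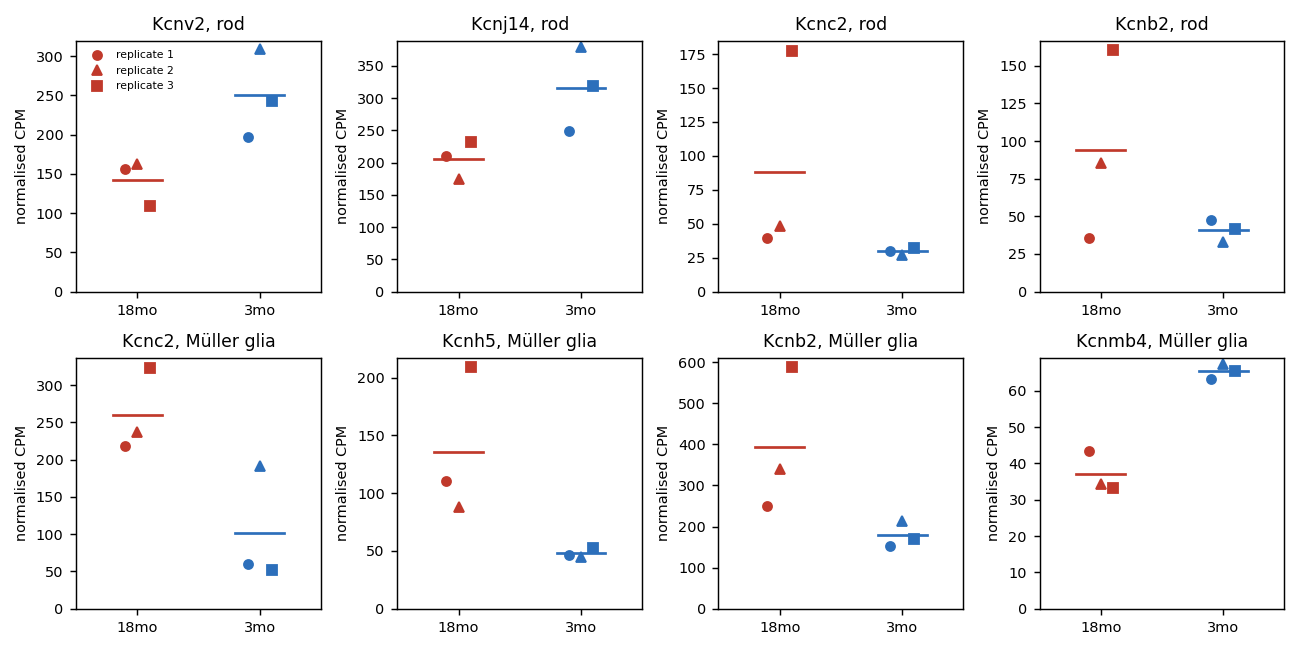
Normalised CPM of 4 genes in rods (upper row) and 4 in Müller glia (lower row) in each library, 18mo in red at the left and 3mo in blue at the right, with symbols for replicates and bars at the means. Kcnv2 and Kcnj14 in rods and Kcnmb4 in Müller glia lie lower at 18mo without overlap, and Kcnc2 in rods reaches 177 in 18mo replicate 3.

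In the inner retina no member was called with age, and the values of those named by rule follow. Between the ages 5 of 53 members did not overlap in amacrine nuclei, beside 6.57% of all genes, and 1 of 61 in ganglion nuclei, beside 6.46%. The same count was 2 of 24 in rod bipolar (5.62% of all genes), 2 of 27 in cone bipolar (7.1%) and 2 of 16 in horizontal nuclei (9.38%), and 3 of 18 in cones (6.76%). In ganglion nuclei Kcnc2 had 797, 1167 and 1057 normalised CPM at 18mo and 766, 1139.97 and 1029.7 at 3mo (0.04 ± 0.12), and Kcnh7 had 914, 1459 and 1256 at 18mo and 969, 1379.96 and 1271 at 3mo (-0.00 ± 0.12). Replicate 1 was the lowest of its age for both genes, and the replicates of an age differed more than the ages. Kcna1 had 35.7, 74.3 and 70.5 at 18mo and 31.3, 98.1 and 94.0 at 3mo (-0.22 ± 0.15). The log2 changes were 0.17 ± 0.12 for Kcnc1 and -0.04 ± 0.16 for the inward rectifier gene Kcnj13. In amacrine nuclei the log2 change of Kcnn2 was -0.04 ± 0.15, and Kcnh1, an ether-a-go-go channel, had 140.5, 96.4 and 90.8 at 18mo and 119, 61.6 and 61.7 at 3mo (0.47 ± 0.16, adjusted p = 0.658). Kcnq5 in amacrine nuclei, named after its values were seen, had 153, 138 and 126 at 18mo and 131, 302 and 408 at 3mo (-0.88 ± 0.30, adjusted p = 0.658), and was called without a low-count filter (-0.86, adjusted p = 0.00167), without 18mo replicate 1 (-1.43, adjusted p = 0.0409) and without 3mo replicate 1 (-1.43, adjusted p = 0.0397). The Tlr4 and Tac2 cluster, where its level was highest, held 16.2%, 8.71% and 10.2% of the 18mo and 11.0%, 22.9% and 36.4% of the 3mo amacrine nuclei, and within it Kcnq5 had 518, 707 and 535 CPM at 18mo and 632, 749.7 and 737 at 3mo, with overlap. The part of that share in the change was not tested. In rod bipolar nuclei the log2 changes were 0.36 ± 0.34 for Kcnma1, 0.24 ± 0.32 for Kcnj9 and 0.07 ± 0.39 for Kcnk3, all negative between the release 7.1.0 libraries alone (-0.32, -0.43 and -0.23, with no test), and in cone bipolar nuclei 0.21 ± 0.29 for Kcnb2.

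The age effect was not shown to differ among the classes for any member. The test of all class by age terms called 0 of 43 members, beside 0.0697% of 11486 genes (edgeR quasi-likelihood F test), and 5 members had an unadjusted p under 0.05, beside 8.02% of all genes: Kcnc2, Kcnh8, Kcnab1, Kcnk9 and Kcnn2. No other tool was run for this test.

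Several members followed the Cell Ranger release in most classes. Kcnj13, which overlaps Gigyf2 on the other strand, was higher in replicate 1 of both ages than in the other 4 libraries in 7 of 8 classes, for instance at 32.2 (18mo) and 22.3 (3mo) CPM in rods against 5.08 to 11.1. Kcnab2, which also overlaps Gm16334 on its own strand, was higher in those libraries in 5 of 8 classes. Kcna1 and the noncoding transcript Kcnq1ot1 were lower there in 5 of 8. Release 7.1.0 and any other difference of these libraries cannot be told apart.

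Genes that work with these channels were not called by edgeR either. Of 38 partner genes (Kv1 and Kv2 partners, BK gamma subunits, sulfonylurea receptors, HCN channels, the sodium potassium pump and potassium transporters), 21 to 32 were tested in a class and 0 were called in any, with 1 (rod bipolar and ganglion) to 11 (rod) at an unadjusted p under 0.05. Among all genes those shares were 4.3%, 7.53% and 23.8%. DESeq2 called 3 in rods, beside 4.7% of all genes, among them the pump gene Atp1b2 and the exchanger gene Slc24a1, both lower at 18mo, and 2 in Müller glia, beside 0.756%, the Kv1 partners Cntnap2 and Dlg2, both higher. In rods the 5 pump genes tested all had a negative log2 change (median -0.34), and 7 of 8 Kv1 partners a positive one (median 0.61), beside -0.03 over all genes.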

How the data were processed

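Members and lists were chosen with earlier results of these data known, and so was the release term in the age test.
The deposited tables held raw UMI counts per gene and barcode, made by the authors with Cell Ranger on mm10 (Seurat is also named), per the file headers and the submitters' processing notes. The strand used in counting is not given in the sources used here.
Nuclei with at least 300 genes and at most 5% mitochondrial UMIs were kept (55230 of 62893 barcodes). The Scrublet caller marked at most 1 nucleus per library, so the top-scoring nuclei were removed, 4.19% to 12.9% of a library (4989 in all), the larger share in larger libraries. Clustering used scanpy 1.11.5 and leidenalg 0.10.2 (2000 variable genes, 30 components, resolution 1), without 99 Kcn and 13 mitochondrial genes. Of 62 clusters, 48 were named, each from at least 3 markers of its class; 18628 nuclei stayed unnamed.
Counts were summed per library and class and tested in edgeR 4.0.16 (TMM, filterByExpr, quasi-likelihood, Benjamini-Hochberg over all genes of the class). DESeq2 1.42.0 was an alternative. The steps were tested on simulated data. CPM divide by the class total; levels by class also use TMM factors over all classes, and normalised CPM with age factors within the class. 3′ counts of nuclei do not compare levels between genes. Fewer cells and less RNA per cell cannot be told apart in shares of nuclei, which were given for some amacrine clusters but not tested.
Genes were named by rule: up to 3 members with the largest contrast per class among those called at a mean of at least 20 CPM, up to 4 called with age per direction and class, and always a fixed list that held Kcnv2, Kcnb2, Kcnma1, Kcnc1, Kcnc2, Kcna1, Kcnj13, Kcnh1, Kcnh7, Kcnj9, Kcnk3 and Kcnn2. Some genes that these rules name are not reported here. Other genes were named after their values were seen. Alternatives were other terms, tools, factors, filters, class definitions and libraries.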

Additional observations from a re-analysis of the deposited data

Results flagged for a closer look

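Classes with few nuclei entered no test. Members are given here whose lower 95% limit lay above 2 times the highest mean of the 8 tested classes. They also had at least 10 UMIs, and the rule was chosen after the data were seen. Values are pooled over libraries with exact 95% Poisson intervals, which cover counting error only. Kcnj8, the pore gene of vascular ATP-sensitive channels, stood at 187.776 CPM in pericyte-like nuclei (139.8 to 246.9, 51 UMIs), against 1.14 in rods, its highest tested class. Kcnt2 stood at 180.412 in pericyte-like nuclei (133.5 to 238.5, 49 UMIs), against 53.0 in rod bipolar nuclei. Kcnq5 stood at 914.14 in astrocyte-like nuclei (707 to 1163, 66 UMIs), against 261 in horizontal nuclei. Kcnk13, a K2P gene, stood at 71.6127 in microglia-like nuclei (51.4 to 97.2, 41 UMIs), against 7.47 in amacrine nuclei. Kcnj13, an inward rectifier known from pigment epithelium, stood at 150.678 in pigment epithelium-like nuclei (109.5 to 202.3, 44 UMIs), against 24.3 in Müller glia, and 3mo replicate 1 held 0 nuclei of that class.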

How the results depend on the processing

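Named class contrasts kept their direction and their call in 218 alternative values, and 1 lost its call, Kcnq5 in amacrine nuclei under the marker gate (0.93, adjusted p = 0.0838). Members called between classes stayed within 1.5 times except in Müller glia, with 18 without a low-count filter and 6 to 11 when a library was left out. Members called by age moved more. Leaving out 1 library gave 0 to 9 members in rods. The 9 without 18mo replicate 1, of 41 tested, stood beside 674 higher and 946 lower of 12114 genes. Rod bipolar nuclei had 0 to 1 (of 25, beside 30 and 13 of 6963 genes, without 3mo replicate 1). Cone bipolar nuclei had 0 to 2 (of 27, beside 28 and 10 of 7308, without 18mo replicate 1). Horizontal nuclei had 0 to 3 (of 21, beside 222 and 21 of 6227, in the same fit). Amacrine nuclei had 0 to 1 (of 48, beside 3 and 7 of 11794, in that fit). Ganglion nuclei had 0 to 2 (Kcnj14 and Kcnv2 lower, of 63, beside 16 and 268 of 15156, without 18mo replicate 3). Müller glia had 0 to 3 (of 21, beside 80 and 46 of 5733, without 18mo replicate 2). The 4 libraries of release 7.2.0 alone gave 9 of 42 in rods, beside 773 higher and 536 lower of 12027 genes. They gave 1 of 21 in rod bipolar nuclei (beside 18 and 11 of 5757 genes). In cone bipolar nuclei they gave 2 of 19 (27 and 8 of 5956) and in horizontal nuclei 3 of 21 (226 and 14 of 6373). In Müller glia they gave 0 of 16 (1 and 0 of 3843). No low-count filter gave 6 of 69 in rods, beside 351 higher and 256 lower of 21967 genes. In cones it gave 1 of 65 (beside 65 and 25 of 19529 genes). In horizontal nuclei it gave 4 of 62 (271 and 26 of 18116) and in amacrine nuclei 1 of 69 (120 and 82 of 23563). DESeq2 gave 1 in rods. Age as the only term, the marker gate and the 2% mitochondrial limit gave 0 in Müller glia. The replicate block gave 6 of 36 in rods, beside 424 higher and 660 lower of 11473 genes. In Müller glia it gave 3 of 23, beside 81 and 69 of 7404 genes, and in the other 6 classes 0. Deviations of replicate 3 correlated at under 0.1 between ages in 6 of 8 classes. The labels give the numbers no meaning, so the libraries were not treated as pairs. Genes called by age ranged from 0 to 1620 in rods and from 0 to 150.0 in Müller glia over the settings. No member was called for a difference among classes in any alternative. Summed members moved beyond 1 SD under the marker gate (cone bipolar 18mo 6296.82, amacrine 18mo 9502.44, amacrine 3mo 7615.92, horizontal 3mo 4685.08, ganglion 3mo 6424.72 CPM) and the 2% limit (ganglion 3mo 7071.01, Müller glia 3mo 3283.17). Signs turned in age changes that were called neither before nor after. Under the marker gate these were Kcnc2 -0.0213 and Kcnh7 0.0077 in ganglion, Kcnj9 -0.0186 in rod bipolar and Kcnn2 0.192 in amacrine nuclei; Kcnh7 in ganglion nuclei was also at 0.00322 with age as the only term and 0.0139 with release 7.2.0 alone. Leaving out 1 library gave ranges that crossed 0 for Kcnb2 in cone bipolar (-0.0472 to 0.451), Kcnj9 (-0.335 to 0.796) and Kcnk3 (-0.164 to 0.356) in rod bipolar, Kcnn2 in amacrine (-0.100 to 0.0125), and Kcnc2 (-0.00131 to 0.0863), Kcnh7 (-0.0846 to 0.0384) and Kcnj13 (-0.130 to 0.0284) in ganglion nuclei. Between the 2 release 7.1.0 libraries alone, with no test, the sign also turned for Kcnma1 (-0.320), Kcnj9 (-0.435) and Kcnk3 (-0.233) in rod bipolar, Kcna1 (0.197) and Kcnj13 (0.0520) in ganglion and Kcnn2 (0.0389) in amacrine nuclei. The cause was not tested. Depth limits Müller glia, where the tested members had 0 to 52 UMIs in 3mo replicates 2 and 3.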
